A study of Homo sapiens with 6 samples.

Results

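The genes examined here are 9 genes of the NRF2 antioxidant pathway (NFE2L2, KEAP1, NQO1, HMOX1, GCLC, GCLM, SRXN1, TXNRD1 and OSGIN1), taken by name from a table of 26184 genes and loci, of which 19974 are annotated genes. The comparison rests on 6 RNA-seq libraries, 3 of each of the lines Huh7 P and Huh7 LR. Huh7 P is the parental, untreated human hepatocellular carcinoma cell line. Huh7 LR is 1 line derived from it under continuous lenvatinib, an inhibitor of several receptor tyrosine kinases, raised from 1 to 20 μM over 10 months and then kept in the medium at 20 μM. Both lines carry the genotype label WT. Since a single resistant line was compared, resistance, separate culture and lenvatinib in the medium cannot be told apart. Whether lenvatinib was present when RNA was harvested is not stated separately. The p-values set the difference between the lines against the spread between samples within each line, not against a spread between resistant lines.

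NRF2, the protein of NFE2L2, is a transcription factor that is bound in the cytoplasm by KEAP1 and handed to a CUL3 ubiquitin ligase for destruction. Electrophiles and oxidants modify cysteines of KEAP1, after which NRF2 accumulates, pairs with a small MAF protein and binds antioxidant response elements near its target genes. These targets make glutathione, reduce thioredoxin, peroxiredoxin and quinones, and break down haem, and in the liver they belong to the defence against drugs and toxins. The activity of NRF2 is set largely at the protein level, which RNA counts do not measure.

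Reads counted on genes totalled 62738937 to 71427573 per library, so that 3 counts, the limit that a count of 0 allows, equal 0.042 to 0.0478 CPM (counts scaled to a library of 1000000). This limit covers counting error only. In both lines the summed level of 8 hepatocyte markers was high, at 43498 to 52591 CPM in Huh7 P and 54989 to 58034 CPM in Huh7 LR, and 4 of the 8 passed edgeR's test as higher in Huh7 LR. Of 6 fibroblast markers, 2 were tested and both, COL1A1 and PDGFRB, were higher, with a summed list level of 2.16 to 2.28 CPM in Huh7 P and 5.02 to 8.02 CPM in Huh7 LR. DCN had no count in any library. The summed level of 6 leukocyte markers was 62.4 to 67.7 CPM in Huh7 P and 10.1 to 14 CPM in Huh7 LR, most of it LYZ, the 1 of 3 tested that passed, and HLA-DRA and TYROBP had no count. The part of these marker levels in the results was not tested.

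The 9 genes did not move together. In these bulk samples, fewer cells that express a gene and less of its RNA per cell cannot be told apart. HMOX1 and OSGIN1 were higher in Huh7 LR, NQO1, GCLM and NFE2L2 were lower, and KEAP1, GCLC, TXNRD1 and SRXN1 did not pass the test. The quasi-likelihood test of edgeR was run on 17531 genes and loci with p-values adjusted by Benjamini-Hochberg, and all 9 genes had enough counts to enter it. An adjusted p under 0.05 marked a gene as higher or lower, which 23.3% of all genes and loci tested met as higher, 22.4% as lower and 45.7% in either direction. The shares among the 9 genes were 2 higher (22.2%) and 3 lower (33.3%), near those of all genes and loci, and their median log2 fold change was -0.01 against 0.00 over all tested. Under the stricter call of an adjusted p under 0.001 and more than 2-fold, met by 4.43% of all tested as higher, 1.78% as lower and 6.21% in either direction, HMOX1 was the 1 gene of the 9 that was called. At an adjusted p under 0.05 and more than 1.5-fold, met by 21.8% of all tested, the count was 4 of the 9 genes. The Huh7 LR libraries lay above all Huh7 P libraries for 4 of the 9 genes and below them for 4, and only SRXN1 overlapped, where 28.2% of all genes and loci tested lay above, 27.7% below and 55.9% in either direction.

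**Figure D1:**
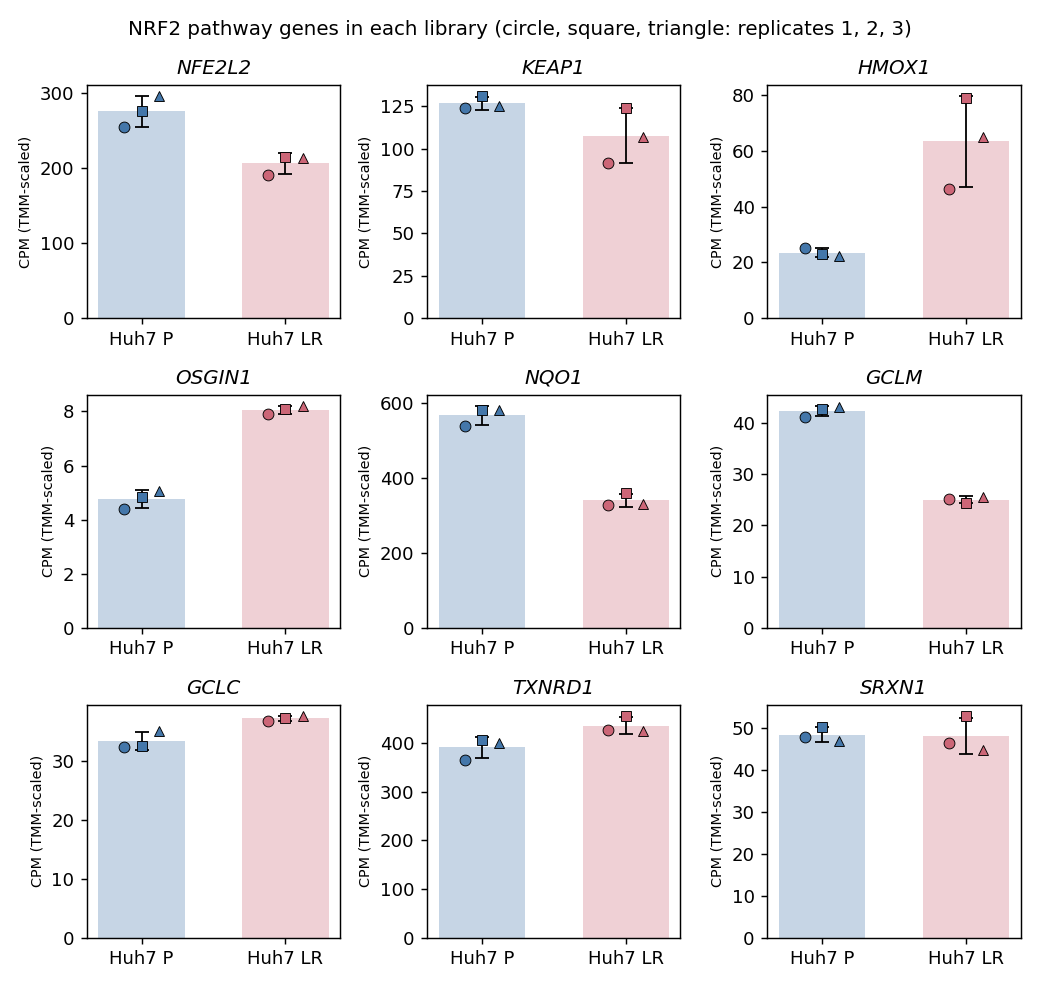
CPM scaled by TMM, edgeR's correction for library composition (vertical axes, each from 0) for each of the 9 genes in Huh7 P (blue) and Huh7 LR (red); bars are means, error bars are SD (n = 3) and points are libraries. HMOX1 rises from 23.5 to 63.5 CPM with a wide spread in Huh7 LR, while NQO1 falls from 567 to 340 CPM and GCLM from 42.3 to 25 CPM with little spread.

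**Figure D2:**
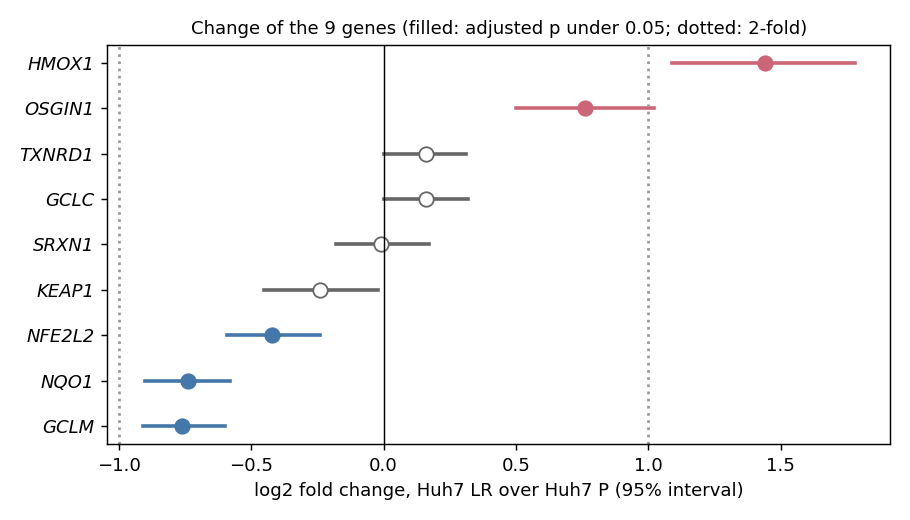
Log2 fold change of Huh7 LR over Huh7 P (horizontal axis) with 95% intervals from edgeR's quasi-likelihood fit for the 9 genes; filled points have an adjusted p under 0.05 and dotted lines mark 2-fold. The values run from -0.76 for GCLM to 1.44 for HMOX1, the only gene of the 9 beyond 2-fold.

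Sequence upstream of 3 of the genes is shown because NRF2 binds its targets at a short element. The core of the antioxidant response element, TGACNNNGC, was searched on both strands (GCNNNGTCA on the other) in the 250 bases before each RefSeq start on GRCh38.p14. Of the 9 genes, 8 had an entry, and 3 of these 8, KEAP1, GCLM and TXNRD1, held the letters, as did 13.2% of the 27305 genes in that table. HMOX1 had no entry. With an A added at its 3′ end, a longer form that lies within the matches of the shorter, the same 3 genes had a match, against 3.22% of all genes. The last 120 bases before the start are printed 5′ to 3′ on the strand of the gene, with each match to TGACNNNGC or its complement in capitals, for KEAP1 at chr19:10502772-10502891 (minus strand, the second of its 2 starts), GCLM at chr1:93909431-93909550 (minus strand) and the 2 starts of TXNRD1 at chr12:104215659-104215778 and chr12:104286912-104287031 (plus strand).
KEAP1: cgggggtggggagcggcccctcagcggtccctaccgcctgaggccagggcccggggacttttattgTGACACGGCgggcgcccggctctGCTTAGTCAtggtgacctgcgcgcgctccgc
GCLM: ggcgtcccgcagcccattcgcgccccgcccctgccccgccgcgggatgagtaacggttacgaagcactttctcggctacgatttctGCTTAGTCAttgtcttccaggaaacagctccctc
TXNRD1, first start: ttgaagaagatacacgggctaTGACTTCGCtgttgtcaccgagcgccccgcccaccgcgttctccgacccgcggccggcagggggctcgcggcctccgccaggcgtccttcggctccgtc
TXNRD1, second start: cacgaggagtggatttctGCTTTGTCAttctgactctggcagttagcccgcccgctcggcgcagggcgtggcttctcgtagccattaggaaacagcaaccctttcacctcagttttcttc
KEAP1 and GCLM held the same 10 letters, TGCTTAGTCA, and the 9-letter match within them begins 31 bases before the KEAP1 start and 34 before the GCLM start. A match describes letters only, and elements farther from the start were not searched.

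NFE2L2 (ENSG00000116044, chromosome 2, 177227595 to 177392697, GENCODE release 29 on GRCh38) had 254, 276 and 295 CPM in the Huh7 P libraries and 190, 215 and 213 CPM in the Huh7 LR libraries. Every Huh7 LR library lay below every Huh7 P library. The mean fell from 275 ± 20.2 to 206 ± 13.7 CPM (SD, n = 3), a log2 change of -0.42 ± 0.08 (SE; edgeR quasi-likelihood adjusted p = 0.00146), and it stayed between -0.47 and -0.36 in 14 alternatives. Of the exon bases of NFE2L2, AC019080.1 covers 17.6% on the same strand, AC079305.1 3.2% on the opposite strand and AGPS 0.9% on the opposite strand. The first of these and AC079305.1 were not analysed here, and whether counting used strand is not stated. Over 12293 annotated genes with at least 1 CPM, the 5 genes whose centred log2 CPM over the 6 libraries lay nearest to that of NFE2L2 were POLD3, ARMC8, ECSIT, NGLY1 and ARL6IP1, at Euclidean distances of 0.0498 to 0.0681. Since the libraries fall into 2 groups, this likeness is mostly that of the difference between the lines.

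KEAP1 (ENSG00000079999, chromosome 19, 10486120 to 10503741), the inhibitor of NRF2, had 124, 131 and 125 CPM in Huh7 P against 91.7, 124 and 107 CPM in Huh7 LR. The highest Huh7 LR library nearly touched the lowest Huh7 P library. The log2 fold change was -0.24 (95% interval -0.45 to -0.02 before adjustment, adjusted p = 0.0691, edgeR's quasi-likelihood test). It passed in 3 of 14 alternatives, with an adjusted p of 0.00398 without Huh7 LR replicate 2, the highest of that line, 0.0444 with DESeq2 and 0.0277 with a replicate block. With any other library left out the adjusted p was 0.112 to 0.198 in edgeR's test. The log2 change was -0.14 when Huh7 LR replicate 1, the lowest of that line, was left out.

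FPKM, fragments scaled to transcript length and library size, allows levels of 2 genes to be compared. The ratio of KEAP1 to NFE2L2 FPKM was 0.493, 0.477 and 0.418 in Huh7 P against 0.494, 0.563 and 0.506 in Huh7 LR. The groups were adjacent but did not overlap, with a difference of 0.17 on the log2 scale (two-sided exact permutation test, p = 0.1, the smallest that 3 samples against 3 allow). Taken from counts the ratios overlapped and the p was 0.2 in the same exact permutation test.

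HMOX1 (ENSG00000100292, chromosome 22, 35380361 to 35394214) encodes haem oxygenase 1, which opens the haem ring and releases iron, carbon monoxide and biliverdin. It had 25.2, 23 and 22.2 CPM in Huh7 P against 46.5, 79 and 65 CPM in Huh7 LR. All Huh7 LR libraries were higher, although they differed among themselves by up to 1.7-fold, with a coefficient of variation of 25.6% against 6.51% in Huh7 P. The mean rose from 23.5 ± 1.53 to 63.5 ± 16.3 CPM (SD, n = 3), a 2.71-fold rise with a log2 change of 1.44 ± 0.16 (SE; edgeR quasi-likelihood adjusted p = 3.23e-05). It was called higher in each of 14 alternatives, with log2 fold changes of 1.26 to 1.62, the extremes being those without Huh7 LR replicate 2 and without Huh7 LR replicate 1.

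OSGIN1 (ENSG00000140961, chromosome 16, 83948282 to 83966332), an oxidative stress response gene associated with growth inhibition, had 4.4, 4.83 and 5.05 CPM in Huh7 P against 7.89, 8.08 and 8.19 CPM in Huh7 LR. The groups were well apart, and the 3 Huh7 LR libraries were within 1.04-fold of each other. It was 1.69-fold higher in Huh7 LR, with a log2 change of 0.76 ± 0.12 (SE; edgeR quasi-likelihood adjusted p = 0.000353). It is the least abundant of the 9 genes, with 298 to 566 counts per library. AC009119.2 shares 13.9% of its exon bases on the same strand and had at most 3 counts in any library.

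NQO1 (ENSG00000181019, chromosome 16, 69706996 to 69726951) encodes the quinone reductase that is often used as a readout of NRF2 activity. It had 538, 582 and 582 CPM in Huh7 P against 329, 361 and 331 CPM in Huh7 LR. All 3 Huh7 LR libraries were lower, and the coefficient of variation within either line was at most 5.37%. The mean fell from 567 ± 25.4 to 340 ± 18.3 CPM (SD, n = 3), 0.599 times the Huh7 P level, with a log2 change of -0.74 ± 0.07 (SE; edgeR quasi-likelihood adjusted p = 1.5e-05). It stayed the most abundant of the 9 genes per length, at 229 ± 7.91 FPKM in Huh7 P and 131 ± 8.42 FPKM in Huh7 LR (SD, n = 3). AC092115.2 covers 17.7% of its exon bases on the opposite strand and was not analysed here.

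GCLC and GCLM encode the catalytic and the modifier subunit of glutamate-cysteine ligase, which carries out the rate-limiting step of glutathione synthesis. GCLM (ENSG00000023909, chromosome 1, 93885205 to 93909456) had 41.1, 42.7 and 43 CPM in Huh7 P against 25.1, 24.3 and 25.6 CPM in Huh7 LR. The groups were far apart and the spread within each was small. Its log2 change was -0.76 ± 0.07 (SE; edgeR quasi-likelihood adjusted p = 1.14e-05), 0.592 times the Huh7 P level. GCLC (ENSG00000001084, chromosome 6, 53497341 to 53616970) had 32.3, 32.5 and 35 CPM in Huh7 P against 36.7, 37.2 and 37.6 CPM in Huh7 LR. Its Huh7 LR libraries lay slightly above those of Huh7 P in CPM and overlapped with them in FPKM. The difference did not pass the test (log2 fold change 0.16, 95% interval 0.00 to 0.32 before adjustment, adjusted p = 0.0871, edgeR's quasi-likelihood test).

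The RNAs of the subunits were also compared as a ratio per length. The ratio of GCLM to GCLC FPKM was 0.912, 1.02 and 0.85 in Huh7 P against 0.537, 0.496 and 0.55 in Huh7 LR. The libraries of the lines did not overlap. The mean ratio was 0.928 ± 0.0878 in Huh7 P and 0.528 ± 0.028 in Huh7 LR (SD, n = 3), a difference of -0.81 on the log2 scale (two-sided exact permutation test, p = 0.1, the smallest possible with 3 samples against 3), and -0.92 when taken from counts.

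**Figure D3:**
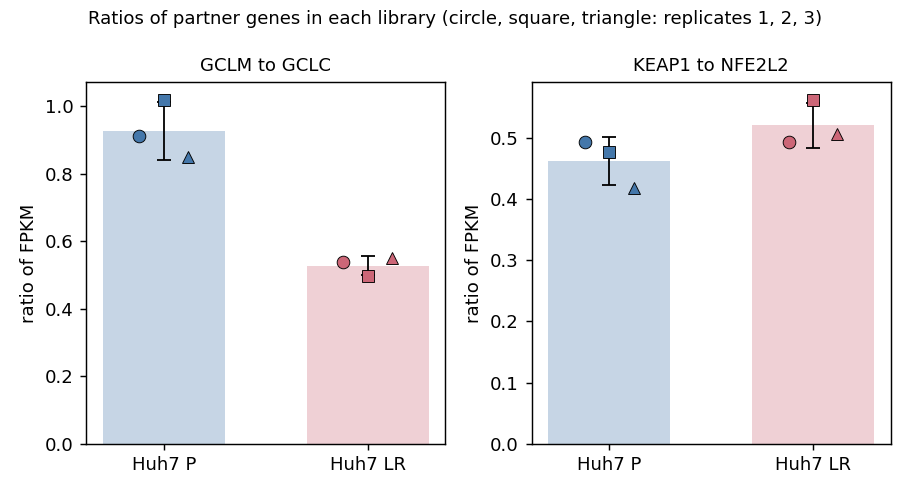
Ratio of FPKM (vertical axes, from 0) of GCLM to GCLC and of KEAP1 to NFE2L2 in Huh7 P (blue) and Huh7 LR (red); bars are means, error bars SD (n = 3), points are libraries. The GCLM to GCLC ratio is 0.85 or more in Huh7 P and 0.55 or less in Huh7 LR, while the KEAP1 to NFE2L2 ratios of the lines lie next to each other.

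TXNRD1 and SRXN1 act in the thioredoxin arm. TXNRD1 (ENSG00000198431, chromosome 12, 104215779 to 104350305), the cytosolic thioredoxin reductase, had 366, 406 and 400 CPM in Huh7 P against 427, 456 and 424 CPM in Huh7 LR. Every Huh7 LR library was above those of Huh7 P, by a small margin, and the difference did not pass the test on counts (log2 fold change 0.16, 95% interval 0.00 to 0.31 before adjustment, adjusted p = 0.0931, edgeR's quasi-likelihood test). On log2(FPKM + 0.1) it passed with limma-trend, at 0.21 and an adjusted p of 0.021. SRXN1 (ENSG00000271303, chromosome 20, 646615 to 653370), sulfiredoxin, which repairs over-oxidised peroxiredoxins, had 47.9, 50.3 and 46.8 CPM in Huh7 P against 46.4, 52.9 and 44.8 CPM in Huh7 LR. Its values overlapped, and the 95% interval of the log2 fold change was -0.18 to 0.17 around -0.01 (adjusted p = 0.935, edgeR's quasi-likelihood test). AL121758.1 shares 85.0% of the exon bases of SRXN1 on the same strand and had at most 7 counts in any library.

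Per length, the order of the genes in Huh7 P was NQO1, NFE2L2, TXNRD1, KEAP1, SRXN1, HMOX1, GCLC, GCLM and OSGIN1, from 229 down to 2.28 FPKM. The libraries of NFE2L2 and TXNRD1 overlapped, as did those of GCLC and GCLM, and the other neighbours were apart. In Huh7 LR, TXNRD1 at 105 ± 3.23 FPKM lay above NFE2L2 at 69.8 ± 4.14 FPKM, and HMOX1 at 32.6 ± 8.09 FPKM above SRXN1 at 16.7 ± 1.39 FPKM (SD, n = 3). Here only KEAP1 and HMOX1 overlapped.

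The wider pathway was described with 62 genes in 7 lists by role, of which 60 were tested (SOD2 has a pair of identifiers and was left out, and SOD3, with 0 counts in every Huh7 P library, was below the count filter). In edgeR's test 16 were higher (26.7%, against 23.3% of all tested) and 20 lower (33.3%, against 22.4%), with a median log2 fold change of 0.03. With at least 10 counts required in every library, which leaves out genes that passed the filter through 1 line alone, 14 of 57 were higher (24.6%, against 25.2% of all genes and loci then tested) and 20 lower (35.1%, against 23.6%). The count of lower genes was 12 without Huh7 P replicate 2 and 13 without Huh7 LR replicate 3. Over all genes and loci the lower count also fell in these fits, from 3923 to 3002 and 3262. Genes of both directions stood in most of the lists, and the comparison between lists was not tested.

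Of 12 partners and controllers of NRF2, 4 were higher (33.3%, against 23.3% of all tested) and 3 lower (25%, against 22.4%). Of the lower genes, RBX1 and PGAM5 did not pass without Huh7 P replicate 1 (edgeR adjusted p = 0.0549 and 0.0544), Huh7 P replicate 2 (0.13 and 0.0679) or Huh7 LR replicate 3 (0.0847 and 0.0566), which left 1 lower gene, CUL3. RBX1 also did not pass without Huh7 P replicate 3 or Huh7 LR replicate 1 (0.108 in each). Among the higher were 2 small MAF genes, which encode the DNA-binding partners of NRF2. MAFF had 5.5, 5.72 and 5.87 CPM in Huh7 P against 15, 8.12 and 9.78 CPM in Huh7 LR (log2 fold change 0.94, adjusted p = 0.0023, edgeR's quasi-likelihood test), so that its highest library was the one in which HMOX1 was lowest among the Huh7 LR libraries. MAFK had a log2 fold change of 0.56, and MAFG one of 0.13 that did not pass (adjusted p = 0.134, edgeR's test). NFE2L3, a relative of NRF2, was 1.89-fold higher, and BTRC, a substrate receptor of another ubiquitin ligase that acts on NRF2, 1.48-fold higher. CUL3, the scaffold of the KEAP1 ligase, was lower, from 87 ± 4.33 to 69.2 ± 4.32 CPM (SD, n = 3). BACH1, a repressor that competes for the same elements and acts on HMOX1, had a log2 fold change of 0.04 (95% interval -0.22 to 0.30).

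In the list of glutathione supply and use, 1 of 12 genes was higher (8.33%, against 23.3% of all tested) and 4 were lower (33.3%, against 22.4%). SLC7A11, the cystine importer, had 48, 37.9 and 40.3 CPM in Huh7 P against 23.9, 9.82 and 14.8 CPM in Huh7 LR. All Huh7 LR libraries were lower and spread widely, and the log2 change was -1.38 ± 0.24 (SE; edgeR quasi-likelihood adjusted p = 0.000848). It met the call of an adjusted p under 0.001 and 2-fold in 7 of 14 alternatives. It missed it with DESeq2, on both FPKM scales, and in edgeR's test without Huh7 P replicate 1, 2 or 3 (adjusted p = 0.00552, 0.00257 and 0.00437) or Huh7 LR replicate 3 (0.00602). GPX1 and GPX2, which reduce peroxides with glutathione, had log2 fold changes of -0.95 each, and GPX4, which reduces lipid peroxides, was the gene that rose, at 0.40 (adjusted p = 0.0015, edgeR's test). GSR and GSS did not pass.

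Of 11 thioredoxin and peroxiredoxin genes, 3 were higher (27.3%, against 23.3% of all tested) and 6 lower (54.5%, against 22.4%). PRDX3, the mitochondrial peroxiredoxin, fell most, from 342 ± 12 to 234 ± 8.39 CPM (SD, n = 3; log2 fold change -0.55, adjusted p = 7.12e-05, edgeR's quasi-likelihood test). PRDX4, the peroxiredoxin of the endoplasmic reticulum, was lower at -0.48, and TXN2 and TXNRD2, the mitochondrial thioredoxin and its reductase, at -0.36 and -0.43. PRDX1, a cytosolic peroxiredoxin, was lower at -0.32, but did not pass without Huh7 P replicate 2 or 3 or Huh7 LR replicate 1 or 3 (edgeR adjusted p = 0.0927, 0.0547, 0.0526 and 0.0723). Cytosolic TXN, at -0.28, passed with all libraries (adjusted p = 0.0196, edgeR's test) but not without Huh7 P replicate 2, Huh7 P replicate 3 or Huh7 LR replicate 3 (0.0672, 0.0889 and 0.075). The higher genes were TXNIP, an inhibitor of thioredoxin, at 0.58, SESN2 at 0.48 and PRDX5, which is also found in mitochondria, at 0.28. TXNIP had 114, 64.4 and 78.4 CPM in the Huh7 LR libraries, and without Huh7 LR replicate 1, the highest, its log2 change was 0.32. It did not pass with DESeq2 (adjusted p = 0.064) or, in edgeR's test, without Huh7 P replicate 1 (0.0567).

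Of 5 genes tied to the supply of NADPH, on which NQO1, thioredoxin reductase and glutathione reductase depend, 2 were lower and 0 higher. With 22.4% of all tested lower and 23.3% higher, a list of 5 genes is too short for these counts to set it apart. The count of higher genes was also 0 at an unadjusted p under 0.05, with DESeq2 and with limma on both FPKM scales. TKT and TALDO1, which encode transketolase and transaldolase, were lower at -0.42 and -0.32 (edgeR's test, adjusted p = 0.000786 and 0.00568), whereas PGD, ME1 and IDH1 did not pass.

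Among 6 haem and iron genes, 2 were higher and 0 lower in edgeR's test, against 23.3% and 22.4% of all tested, and these 6 genes are likewise too few to set the list apart. The count of lower genes was also 0 at an unadjusted p under 0.05, with DESeq2 and with limma on both FPKM scales. BLVRA, which reduces the biliverdin made by haem oxygenase, rose from 2.83 ± 0.684 to 5.22 ± 0.802 CPM (SD, n = 3), and SLC40A1, the iron exporter ferroportin, from 126 ± 5.6 to 177 ± 17 CPM (SD, n = 3). HMOX2, the constitutive haem oxygenase, had a log2 change of 0.17 (adjusted p = 0.223, edgeR's test), and the ferritin genes FTH1 and FTL had 0.10 and 0.02. Ferritin genes have many processed copies in the genome, between which counting could have split reads.

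Of 12 detoxification genes that respond to NRF2 in other settings, 6 were higher (50%, against 23.3% of all tested) and 4 lower (33.3%, against 22.4%). With at least 10 counts required in every library, which leaves out AKR1C3, AKR1B10 and CBR3, 4 of 9 were higher and 4 lower (44.4% each, against 25.2% and 23.6% of all then tested). EPHX1, PTGR1 and ABCC3 were each higher, by 1.84-, 1.88- and 1.84-fold. The aldo-keto reductases AKR1C3 and AKR1B10 had the highest log2 fold changes, 2.89 and 2.33, at low levels, with 3 to 16 and 9 to 25 counts in the Huh7 P libraries and 37 to 87 and 48 to 103 in the Huh7 LR libraries. Both had under 10 counts in some Huh7 P library and passed the count filter only through Huh7 LR, where they were high, so their place among the higher genes is no support for the list, and with at least 10 counts required in every library they were not tested. Without Huh7 P replicate 1, where AKR1C3 had its 16 counts, its log2 change was 3.50, and it was 2.48 without Huh7 P replicate 3. AKR1C3 met the call in 5 of 11 alternatives. In edgeR's test it missed it with the replicate block (adjusted p = 0.00127), without Huh7 P replicate 1, 2 or 3 (0.00133, 0.0043 and 0.00369) and without Huh7 LR replicate 2 or 3 (0.00404 and 0.00552). AKR1B10 missed it narrowly (adjusted p = 0.00104, edgeR's test) and met it in 3 of 11 alternatives, with log2 changes of 2.02 to 2.83. AKR1C1, a close paralog, was lower at -0.30, and reads of these paralogs may have been split between them. NQO2, the paralog of NQO1, was lower at -0.35. Each of the 4 lower genes had an adjusted p above 0.05 in some alternative. On FPKM with limma-trend, at a pseudocount of 0.1, the adjusted p was 0.116 for AKR1C1, 0.0558 for NQO2 and 0.0884 for UGDH. In edgeR's test AKR1C1 did not pass without Huh7 P replicate 2 or 3 or Huh7 LR replicate 3 (adjusted p = 0.114, 0.0873 and 0.127). UGDH did not pass without Huh7 P replicate 1 or 2 or Huh7 LR replicate 2 or 3 (edgeR adjusted p = 0.0979, 0.103, 0.0505 and 0.0638), nor ABCC2 without Huh7 P replicate 2 (0.0715). CBR1 was 1.29-fold higher.

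**Figure D4:**
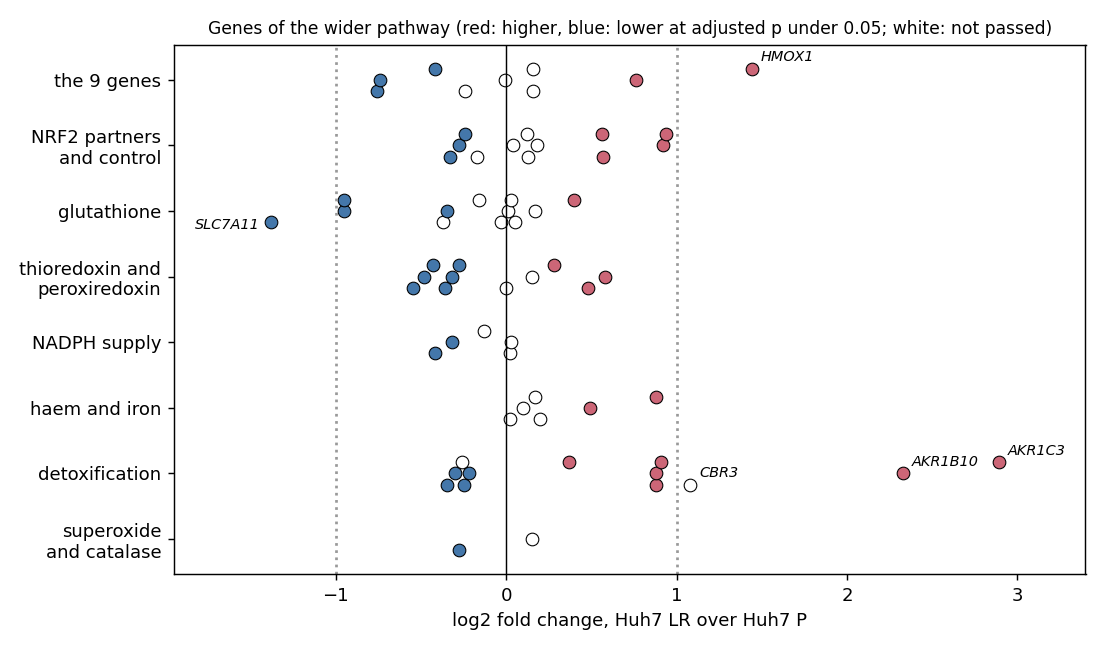
Log2 fold change of Huh7 LR over Huh7 P (horizontal axis) for the 9 genes and the tested genes of 7 lists by role (rows); points are genes, red where higher, blue where lower at an adjusted p under 0.05 and white where not passed, and dotted lines mark 2-fold. The NADPH row holds blue and white points, the lowest TKT at -0.42, the haem and iron row red and white points, and the other lists of more than 2 genes hold both colours.

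Of the last list, SOD1 had a log2 change of -0.28 (adjusted p = 0.0251, edgeR's test), which did not pass without Huh7 P replicate 2 or 3 or Huh7 LR replicate 1 or 3 (0.0873, 0.0909, 0.0652 and 0.0874), and CAT did not pass. Of the 10 genes of the wider lists whose 250 upstream bases held TGACNNNGC, 3 were higher (MAFF, CBR1 and EPHX1), 2 lower (RBX1 and GPX2) and 5 did not pass, with 23.3% and 22.4% of all genes and loci tested higher and lower. RBX1 passed only with all libraries or without Huh7 LR replicate 2 among the fits that leave out a library, so 1 lower gene was left in the other 5.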

How the data were processed

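RNA-seq data of 3 Huh7 P and 3 Huh7 LR samples were used, grouped by their titles. The authors deposited 1 table with raw read counts and FPKM values (scaled by the authors to transcript length and library size) per gene and library. The submitters' processing notes name TopHat2, Cufflinks, DESeq and mm10, a mouse build, whereas all 19974 gene identifiers are human and present in GENCODE release 29. The labels also describe extraction from an insect. The authors' annotation and strand setting are not given in the sources used here. Coordinates are those of GENCODE release 29 on GRCh38 and upstream sequences those of RefSeq on GRCh38.p14. A total of 34 lines that name no gene were left out, and loci without an annotated gene held 2.86% to 3.35% of counts.

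The main test on counts was that of edgeR 4.0.16 under R 4.3.3 (filterByExpr with a minimum count of 10 and total of 15, TMM factors of 0.977 to 1.03, quasi-likelihood test). Standard errors were the size of the log2 change over the root of F. Alternatives were DESeq2 1.42.0 (its size factors and its test), other filters, a replicate block, limma-trend 3.58.1 on FPKM (a pseudocount of 0.1 or 1 on the log2 scale, genes reaching 0.5 FPKM in 3 libraries), other thresholds, overlapping genes summed, and each library left out. In 1 simulated set of 17250 tested genes, 200 were changed 2-fold. Of 199 genes that edgeR called there, 180 were changed and 19 were not. The set is unlike the data, in which 8016 of 17531 passed, many by less than 2-fold, so it does not give the error rate here. Ratios were compared by an exact permutation test.

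The 9 genes and the lists were chosen with earlier results of these data known, the lists by role from general knowledge. Named by rule were the 9 genes, called genes of the lists, the largest rise and fall of each list, and the 5 genes nearest to NFE2L2. Other genes of the lists were named after their values were seen. An item of the lists is not reported here and was left out of their counts.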

Additional observations from a re-analysis of the deposited data

How the results depend on the processing

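HMOX1, OSGIN1, NQO1, GCLM and NFE2L2 kept their direction and an adjusted p under 0.05 in each of 14 alternatives, and GCLC stayed above it in each. SRXN1, near 0, turned to 0.01 with at least 10 counts in every library, to 0.01 on log2(FPKM + 0.1) and on log2(FPKM + 1), and to between 0.01 and 0.04 with Huh7 P replicate 2, Huh7 LR replicate 1 or Huh7 LR replicate 3 left out (range over left-out libraries -0.08 to 0.04). TXNRD1 passed on both FPKM scales (adjusted p = 0.021 and 0.0209, limma-trend). At a threshold of 1.5-fold and an adjusted p under 0.05, 4 of the 9 genes were called in place of 1. Of all genes and loci tested, 21.8% met that threshold in place of 6.21%. With each library left out in turn, 12 to 20 of the wider pathway genes were lower in place of 20, and 16 to 18 higher. The lower genes were 12 without Huh7 P replicate 2 and 13 without Huh7 LR replicate 3. Over all genes and loci the lower count also fell in these fits, from 3923 to 3002 and 3262, and the higher count from 4093 to 3349 and 3398. Of the 36 wider pathway genes that passed, 25 passed in every alternative that gave a value and 11 did not, with 29 of the 36 losses under a left-out library, 6 on FPKM and 1 with DESeq2. Besides TXN, TXNIP and SOD1 these were RBX1, PGAM5, GPX8, PRDX1, AKR1C1, NQO2, UGDH and ABCC2. The cause of the losses was not tested, and fits with a left-out library also have fewer samples. The replicate numbers of the labels shared little deviation (correlations of 0.076, 0.093 and 0.044 for equal numbers, against -0.106 to 0.025 for others), although every sample correlated best with its own number. With the replicate block, 4 of the 9 genes were lower in place of 3, since KEAP1 passed (-0.25, adjusted p = 0.0277, edgeR's test). KEAP1 also passed with DESeq2 (-0.24) and without Huh7 LR replicate 2 (-0.34). The 9 genes had at least 298 counts per library and AKR1C3 as few as 3, and the effect of depth was not tested.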
